A study of Mus musculus and Rattus norvegicus with 96 samples.

Results

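Small nucleolar RNAs (snoRNAs) and small Cajal body-specific RNAs (scaRNAs) were followed through 4 ways of preserving the same mouse livers. The RNAs described were all genes whose symbol was Snora, Snord or Scarna followed by a number and whose count was above 0 in at least 12 of the 48 mouse liver libraries. Of 24543 genes counted, 119 carried such a symbol and 50 met the rule: 30 of 36 Snora genes, 16 of 74 Snord genes and 4 of 9 Scarna genes. Of the other 69 symbols, 37 had no count in any library and 32 had a count in 1 to 11 libraries. At the limit, Snord23 was counted in 16 libraries and Snord67 in 11.

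Snora genes encode H/ACA RNAs, which guide the conversion of uridine to pseudouridine, mostly in ribosomal RNA, within a particle built on the proteins dyskerin (Dkc1), Nhp2, Nop10 and Gar1. Snord genes encode C/D RNAs, which guide 2′-O-methylation by fibrillarin (Fbl) with Nop56, Nop58 and Snu13. Scarna genes encode guides that reside in Cajal bodies and direct the same modifications on spliceosomal RNAs. In mammals most of these RNAs are cut from introns of host genes, many of which encode ribosomal proteins or other parts of the translation machinery, so that a guide and its host messenger share a transcript and then part ways. They are short, carry no poly(A) tail and are stabilised by their proteins.

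Livers came from 12 male B6C3F1 mice of 10 to 11 weeks, 6 given plain drinking water (Con) and 6 given phenobarbital (PB), an inducer of hepatic P450 enzymes, at 600 ppm in the water for 7 days. Each liver was divided into a frozen piece (FR), a frozen piece later fixed in 70% ethanol (FR > OH), a frozen piece later fixed in 10% neutral buffered formalin (FR > FFPE), and a piece fixed in the same formalin while fresh (FFPE, about 18 h). The last 3 were embedded in paraffin and extracted with another kit than FR, so embedding and extraction cannot be told apart from fixation in comparisons with FR. FFPE samples were also fragmented by heating for a shorter time in library preparation, which cannot be told apart either. The paper does not say whether this held for all 3. The libraries were strand-specific total RNA depleted of ribosomal RNA, with 6 mice in each of the 8 groups and 1 library per mouse and preparation.

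Total counts ran from 4952797 to 13702672 per library. They were lowest in FFPE (4952797 to 6760422) and highest in FR (11737338 to 13702672). The reads per library behind the authors' deposited log2 CPM were closer, at 21693756 to 26956906 in FFPE and 23744721 to 27352660 in FR. Levels are given as CPM, a count divided by the library's total count and scaled to 1000000 counts. Cyp2b10, the P450 gene that PB induces, was at or below 2.45 CPM in Con and at or above 1078 CPM in PB, as the labels required. The summed CPM of 5 hepatocyte markers ran from 47380 to 96550 in FR, 38810 to 67570 in FR > OH, 34860 to 68210 in FR > FFPE and 25580 to 44310 in FFPE. The sum of 7 markers of other liver cells ran from 412.3 to 504.8 in FR, 241.4 to 400.5 in FR > OH, 299.8 to 434.8 in FR > FFPE and 275.8 to 387.4 in FFPE. Among these, Dcn of stellate cells and fibroblasts and Clec4f of Kupffer cells had means of 139.7 and 121.3 CPM in FR and 61.4 and 65.4 in FFPE, while Stab2 of sinusoidal endothelium had 135.5 and 165.0, and the bile duct markers Krt19 and Epcam were at most 4.53 and 1.78 CPM. Their part in the values below was not tested. Rn45s, the ribosomal RNA precursor, took 4206 to 13060 CPM in FR and 81270 to 127600 CPM in FFPE. It took 24570 to 68200 CPM in FR > OH and 22320 to 51270 in FR > FFPE, also above FR. The part of Rn45s in the values below was not tested. In bulk RNA, fewer cells that make an RNA and less RNA per cell cannot be told apart.

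The leading rises of the H/ACA and of the C/D class after direct formalin fixation are shown first, 4 and 2 RNAs ranked within their class, together with a long H/ACA RNA that rose little and the longest C/D RNA, which was lower. All are printed 5′ to 3′ as DNA letters from the GENCODE annotation of build GRCm38. In the H/ACA RNAs capitals mark the ACA box that stands 3 bases before the end and the match to the H box, ANANNA, that lies nearest the middle. In the C/D RNAs they mark the C box core TGATGA in the first 20 bases and the D box CTGA in the last 20.
Snora26, chr5:74093530-74093650, plus strand: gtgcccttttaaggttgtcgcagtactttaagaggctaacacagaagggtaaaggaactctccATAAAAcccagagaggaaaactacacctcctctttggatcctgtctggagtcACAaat
Snora16a, chr4:132309465-132309600, plus strand: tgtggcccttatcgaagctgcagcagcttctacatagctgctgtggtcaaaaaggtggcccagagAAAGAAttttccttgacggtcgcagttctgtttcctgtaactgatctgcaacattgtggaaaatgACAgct
Snora28, chr12:111540946-111541066, plus strand: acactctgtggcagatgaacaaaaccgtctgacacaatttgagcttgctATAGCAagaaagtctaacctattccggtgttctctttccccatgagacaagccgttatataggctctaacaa
Snora21, chr11:97781639-97781766, minus strand: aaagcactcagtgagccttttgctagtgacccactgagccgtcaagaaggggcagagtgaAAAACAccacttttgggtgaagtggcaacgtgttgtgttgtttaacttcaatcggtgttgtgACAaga
Snora23, chr7:110046364-110046547, plus strand: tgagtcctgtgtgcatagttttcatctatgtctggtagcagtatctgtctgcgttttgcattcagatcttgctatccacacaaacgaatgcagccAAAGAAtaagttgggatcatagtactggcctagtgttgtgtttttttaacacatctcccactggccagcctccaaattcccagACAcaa
Snord16a, chr9:64175432-64175521, plus strand: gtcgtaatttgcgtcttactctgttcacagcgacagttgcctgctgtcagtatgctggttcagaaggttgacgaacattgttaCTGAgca
Snord104, chr11:106500993-106501062, plus strand: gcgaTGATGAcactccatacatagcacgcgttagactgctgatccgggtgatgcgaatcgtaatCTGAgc
Snord17, chr2:144265982-144266202, minus strand: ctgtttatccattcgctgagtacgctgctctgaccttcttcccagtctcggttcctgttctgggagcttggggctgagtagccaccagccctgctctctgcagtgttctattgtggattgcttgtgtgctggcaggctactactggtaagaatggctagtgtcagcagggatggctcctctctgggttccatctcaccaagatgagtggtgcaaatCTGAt

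The annotated ends decide whether a box is found at a fixed place. Snora28 ends too soon after its last aca to have one at the position searched, and the annotation holds 90 of the 91 bases counted for Snord16a and 70 of the 73 for Snord104. Over the H/ACA genes read, the ACA was found at that position in 20 of 29 described here and in 23 of 35 in all, against 0 of 16 C/D genes described here. The H box letters were less particular, with a match near the middle in 23 of 29 H/ACA genes and in 7 of 16 C/D genes. The D box letters were found in all 16 C/D genes (and in 4 of 29 H/ACA genes) and the C box core in 7 of 16 and 0 of 29.

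A few long guides held most of the counts. Snord17 was the most abundant, with a mean of 212.5 CPM over the 48 libraries, or 961.5 CPM per kilobase of its 221 bases. Next per kilobase came Snord15b, a U15 C/D RNA inside the ribosomal protein gene Rps3 (534.7 CPM per kilobase), and Snora74a, a U19 H/ACA RNA that takes part in processing of ribosomal RNA (431.4). Snord22 stood at 354.5, Snora81, inside the translation factor gene Eif4a2, at 309.2, and Snora23, inside the nuclear import gene Ipo7, at 231.5 CPM per kilobase. The scaRNAs Scarna6 (173.0) and Scarna13 (163.5) followed, while the lowest value per kilobase was 0.693 in Snord23. Length and log2 mean CPM rose together across the 50 RNAs (Pearson r 0.74, Spearman rho 0.74, across genes in shared libraries, which are not independent replicates). The 50 had a median length of 120.5 bases against 64 in the 69 symbols that did not meet the rule. Among C/D genes alone the medians were 92.5 and 63.5 bases.

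For each RNA, preparations were compared with edgeR's quasi-likelihood test over 13370 genes. A gene was called where it changed at least 2-fold with an adjusted p under 0.05 (Benjamini-Hochberg) in Con and, the same way, in PB. Printed log2 fold changes are means of the Con and PB contrasts with their standard error. Of the 50 RNAs, 30 passed the filter on low counts that preceded this fit (20 H/ACA, 8 C/D and 2 scaRNAs). The other 20 are given as pooled values further on.

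Guides of both the H/ACA and the C/D class were called higher after direct formalin fixation. Neither fitted scaRNA was called, and Snord17 was lower without reaching 2-fold in Con. In FFPE vs. FR, 15 of the 30 fitted RNAs were called higher and 0 lower, where 9.52% of all genes tested were called higher and 1.28% lower. The 15 were Snora3, Snora15, Snora16a, Snora21, Snora26, Snora28, Snora31, Snora52, Snora64, Snora69, Snora70, Snord15a, Snord16a, Snord89 and Snord104. DESeq2 called 12 higher and 1 lower, and limma on the deposited log2 CPM called 4 higher and 1 lower, the lower one being Snord17 in both. With counts thinned to the smallest library, which removes the difference in total counts, 11 were called and Snora3, Snora15, Snora69 and Snord89 were not. The shares of all genes called by DESeq2, by limma or with thinned counts are not given here. When every gene with any count was fitted, so that none of the 50 was left out, 22 of 50 were called higher. Of all 18841 genes so fitted 7.02% were, but these were not held to the 12-library rule, so the shares are unlike. Snord49b and Snord55, among those called then, were counted in 17 libraries each, 8 of them FFPE. These 2 met the rule only through FFPE. Snora24, also called then, reached a count of 0.5 in only 14 libraries, most of them FFPE. By adjusted p alone, in Con and in PB, 18 of the 30 were higher and 1 lower, where 39.5% and 11.7% of genes were.

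The scale of each library bore on how many were called. With the total count as the library size the median gene rose by 0.32 on the log2 scale in FFPE vs. FR. With all reads of the library as the divisor, the scaling of the authors' deposited log2 CPM, it fell by 0.63. Then 5 RNAs were called higher (Snora16a, Snora21, Snora26, Snora28 and Snora64) and Snord17 lower. The paper, with its own test and CPM scaling, reports nearly all genes changed in FFPE vs. FR as lower. With the total count as the library size the direction was the reverse, 9.52% of genes called higher and 1.28% lower. Of the 30 RNAs, 24 lay above the median gene under either scaling. A change of divisor shifts all genes nearly alike, so this could hardly have come out otherwise. Sample titles carry a number from L1 to L5, read here as a sequencing lane or pool, and a fit to FFPE and FR with a term for it called 6 higher (Snora21, Snora26, Snora28, Snora64, Snora70 and Snord15a). In that fit 22 of the 30 lay above the median gene. The shares of all genes called with all reads as the divisor or with this term are not given here. The counts of RNAs called can thus not be set against them.

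Snora26 had the largest log2 fold change of the 30, 2.96 ± 0.26 (SE, adjusted p = 7.28e-14, edgeR). Its level in FR Con was 0.850 CPM at the lowest, 1.18 at the median and 1.89 at the highest, and in FFPE Con 8.59, 13.1 and 19.7. In PB mice the levels were 0.696, 1.51 and 2.61 CPM in FR and 5.91, 8.85 and 12.1 in FFPE. All 12 FFPE libraries thus lay above all 12 FR libraries, from 8.50 to 33.1 counts a library in FR and from 39.9 to 118.5 in FFPE. Snora26 lies inside an exon of the annotated long noncoding RNA Dancr, its counts were in part fractional estimates, and Dancr itself was called higher at 1.42, so reads of both cannot be fully told apart.

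Snora16a followed at 2.83 ± 0.32 (adjusted p = 5.60e-11, edgeR). All its 136 bases lie in an annotated exon of Snhg12, a long noncoding host gene, so reads of both cannot be fully told apart. Snora16a was scarce: FR libraries held 0 to 9 counts and FFPE libraries 6 to 23. Its CPM was 0.256, 0.404 and 0.737 in FR Con (lowest, median, highest), against 1.15, 2.71 and 3.82 in FFPE Con. In PB the values were 0, 0.167 and 0.485 in FR and 1.43, 1.79 and 4.24 in FFPE, again without overlap.

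Snora28, within the translation initiation factor gene Eif5, changed by 2.49 ± 0.23 (adjusted p = 1.53e-13, edgeR). Its CPM rose from 0.691, 1.09 and 1.64 in FR Con to 4.98, 7.70 and 13.2 in FFPE Con, and from 0.292, 1.16 and 2.60 in FR PB to 3.62, 5.85 and 9.09 in FFPE PB. Snora21, from an intron of the ribosomal protein gene Rpl23, changed by 2.35 ± 0.25 (adjusted p = 2.36e-11, edgeR), with 1.07, 1.44 and 2.03 CPM in FR Con and 4.02, 9.56 and 14.1 in FFPE Con. Snora64, a U64 guide within Rps2, changed by 2.28 ± 0.22 (adjusted p = 1.27e-12, edgeR). Snora64 stood at 0.682, 1.17 and 1.56 CPM in FR Con and at 3.95, 7.05 and 9.86 in FFPE Con.

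Among C/D RNAs Snord16a, within the ribosomal protein gene Rpl4, changed most, by 2.28 ± 0.34 (adjusted p = 6.42e-08, edgeR). FR Con libraries held 0.158, 0.252 and 0.573 CPM and FFPE Con libraries 1.01, 1.90 and 3.16. In PB the ranges met, at 0, 0.281 and 0.947 in FR and 0.444, 1.23 and 2.01 in FFPE. Snord104 changed by 1.92 ± 0.24 (adjusted p = 8.18e-10, edgeR). The U15 pair from Rps3 changed unequally: Snord15a by 1.31 ± 0.12 (adjusted p = 2.24e-13, edgeR) and the more abundant Snord15b by 0.65 ± 0.11 (adjusted p = 1.27e-06), which missed the 2-fold limit. Their difference was not tested. With all reads as the divisor Snord15b turned to -0.30, while Snord15a stayed positive at 0.36.

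Snord17 went the other way. It was 0.98 ± 0.11 lower on the log2 scale in FFPE (adjusted p = 2.27e-10, edgeR), which just missed 2-fold in Con, and it was lower in FFPE in 12 of 12 mice and under each of 12 alternatives tried. FR Con libraries held 290.8, 314.0 and 355.6 CPM and FFPE Con libraries 116.6, 180.5 and 209.8. The PB libraries held 212.8, 267.1 and 337.2 CPM in FR and 85.9, 136.5 and 153.2 in FFPE. The highest FFPE library was thus below the lowest FR library. Of the 30 fitted RNAs, 6 H/ACA RNAs showed the opposite separation, with all 12 FFPE libraries above all 12 FR libraries (Snora16a, Snora21, Snora26, Snora28, Snora64 and Snora70). The share was near that of all genes tested, of which 16.1% did so and 4.13% lay wholly below.

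**Figure D1:**
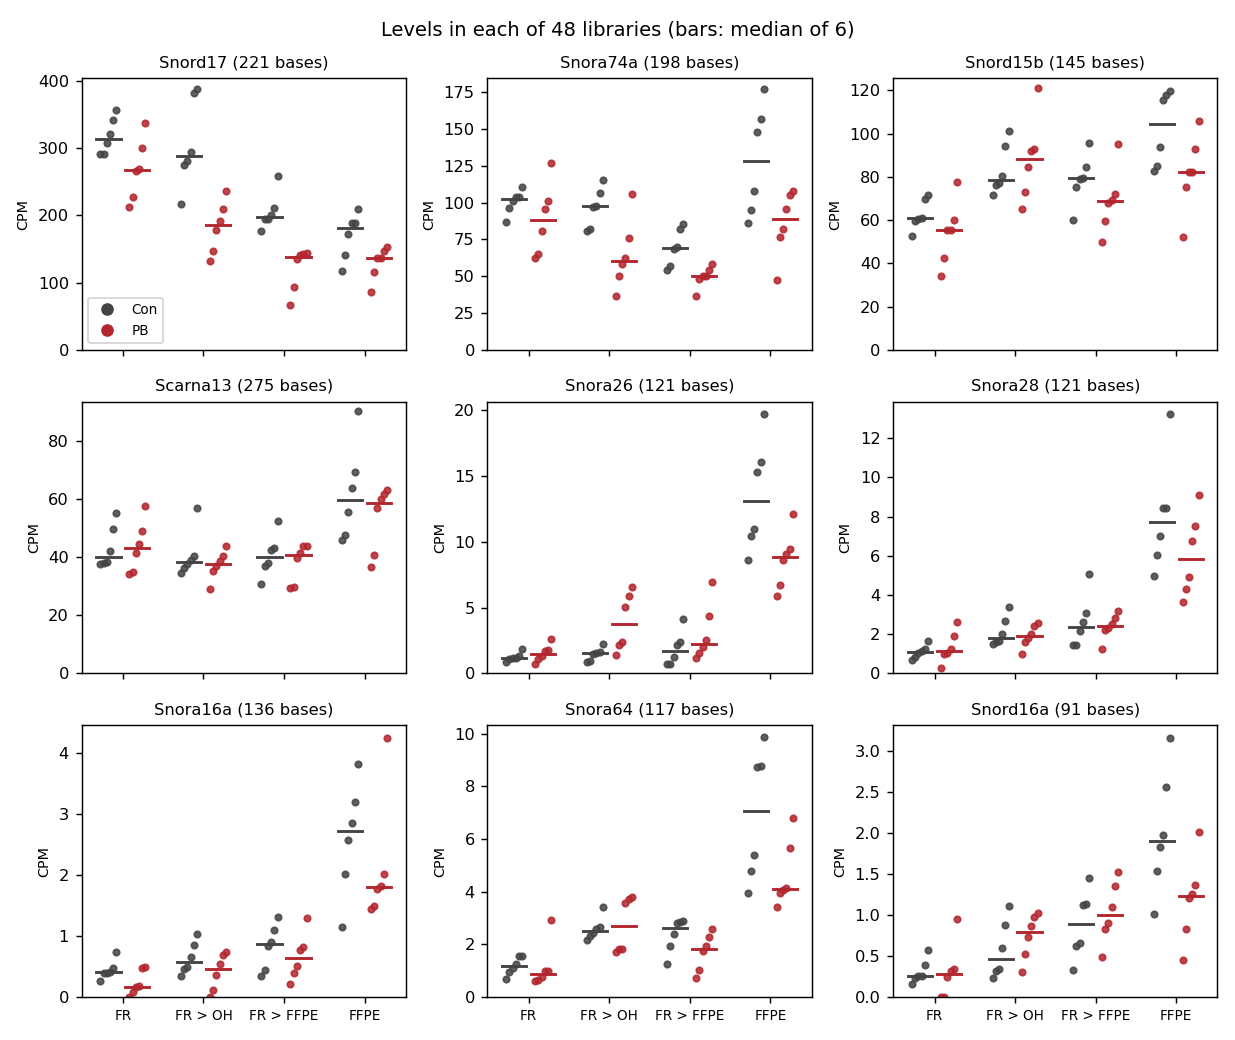
Levels (CPM, linear axes from 0) of 9 RNAs in the 48 libraries by preparation; each point is a library, grey for Con and red for PB, and bars are medians of 6. Snord17 libraries fell from 212.8 to 355.6 CPM in FR to 85.9 to 209.8 in FFPE, while Snora26 rose from 0.696 to 2.61 to between 5.91 and 19.7.

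For several guides that were not called the direction hung on the scaling. Snora74a stood at 86.7, 102.4 and 110.8 CPM in FR Con and at 86.04, 127.8 and 177.1 in FFPE Con, with a log2 fold change of 0.15 ± 0.13 (adjusted p = 0.310, edgeR) that turned negative under 6 of 12 alternatives. Snord118, the U8 RNA needed to process the large ribosomal subunit RNAs, was at 0.14 ± 0.20 (adjusted p = 0.546, edgeR), and its sign turned under 6 of 12 as well. Scarna13 (0.40 ± 0.11) and Scarna6 (0.36 ± 0.09) were positive in the main fit and negative with all reads as the divisor (-0.56 and -0.60). Snora81 passed the adjusted p at 0.91 ± 0.15 (adjusted p = 1.02e-06, edgeR) and was higher in 12 of 12 mice, short of 2-fold, and turned to -0.05 in the same way. Snora44 (-0.31 ± 0.25) and Snora7a (-0.28 ± 0.22) were the only fitted H/ACA RNAs below 0 in the main fit, and neither passed the test.

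**Figure D2:**
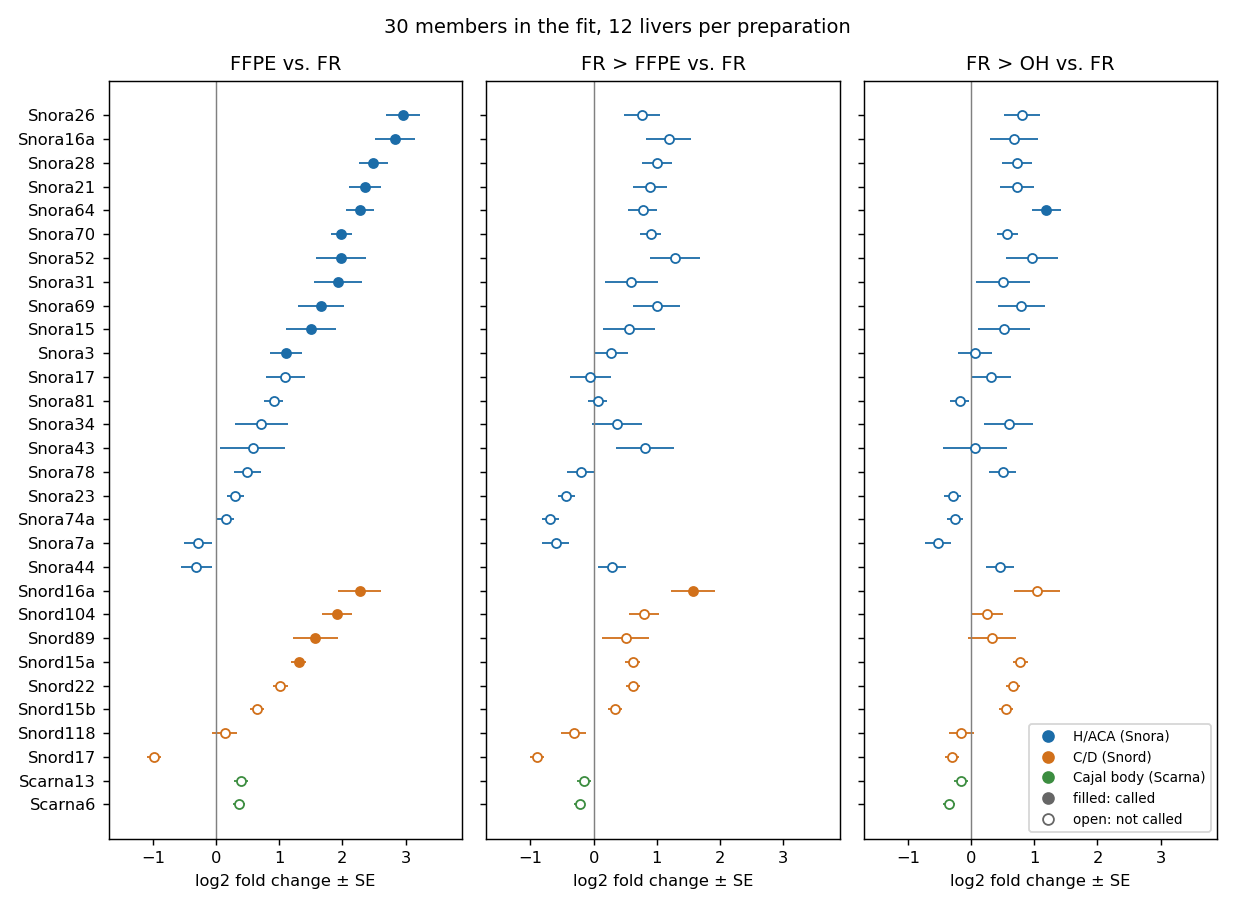
Log2 fold change ± SE of the 30 fitted RNAs against FR for FFPE, FR > FFPE and FR > OH, coloured by class; filled points were called (2-fold and adjusted p under 0.05 in Con and in PB). In FFPE 15 points are filled, from Snora3 at 1.11 to Snora26 at 2.96, against 1 each in the other panels.

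The changes are also given by length. Of 21 fitted RNAs of 73 to 139 bases, 14 were called higher, with a median log2 fold change of 1.66 (range -0.31 to 2.96). Of 9 RNAs of 145 to 275 bases 1 was called (Snord15a, 148 bases), with a median of 0.40 (range -0.98 to 1.31). The division at 140 bases was made after the values were seen, and the difference between the groups was not tested. Across the 8 C/D RNAs the log2 fold change in FFPE vs. FR went with length at Pearson r -0.91 and Spearman rho -0.81, and across the 20 H/ACA RNAs at -0.43 and -0.30. GC content gave weaker values (-0.36 and -0.21 in C/D, -0.27 and -0.29 in H/ACA). Longer RNAs were also the more abundant ones, and log2 mean CPM gave -0.80 and -0.79 in C/D and -0.33 and -0.22 in H/ACA, so that length and abundance cannot be told apart here. These are descriptions across RNAs that share libraries.

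**Figure D3:**
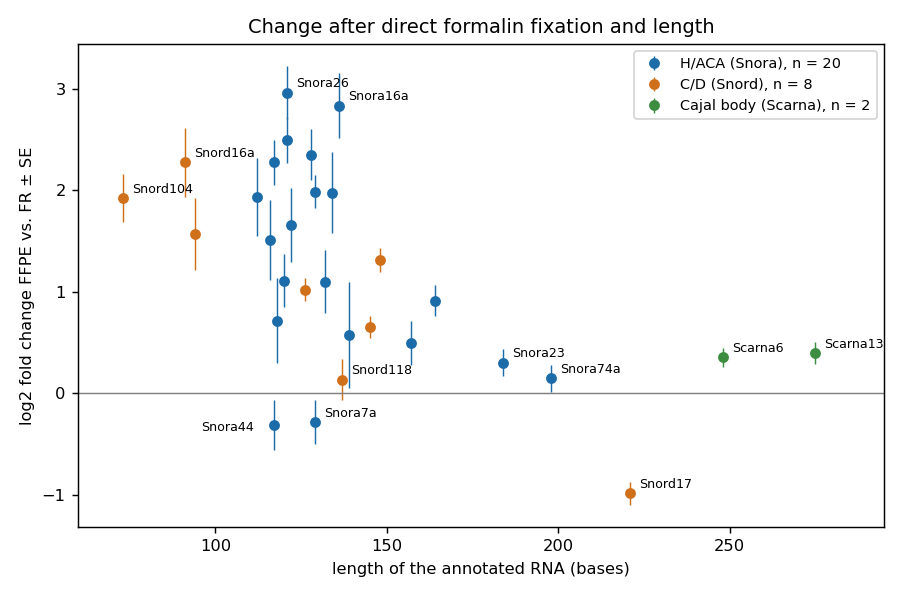
Log2 fold change ± SE in FFPE vs. FR against annotated length in bases for the 30 fitted RNAs, coloured by class. The 21 RNAs up to 139 bases had a median of 1.66, and Snora23 (184 bases), Snora74a (198), Scarna6 (248) and Scarna13 (275) lay between 0.15 and 0.40, with Snord17 (221) at -0.98.

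The weight of the classes within a library does not depend on its scaling. Summed over the 30 H/ACA and the 16 C/D genes, H/ACA RNA made 0.416 to 0.721 of the C/D level in FR (median 0.540), 0.426 to 0.645 in FR > OH (median 0.536) and 0.524 to 0.716 in FR > FFPE (median 0.616). In FFPE the ratio was 0.778 to 1.25 (median 1.01), above every library of the other preparations. The log2 ratio was higher in FFPE than in FR by 0.84 ± 0.19 (SD over 12 mice) and rose in 12 of 12 mice. Against FR, FR > FFPE differed by 0.17 ± 0.18 (9 of 12 mice higher) and FR > OH by -0.06 ± 0.24 (5 of 12). In L2, the one number that both preparations carry, the 2 FFPE libraries gave 0.790 and 0.996 and the 8 FR libraries 0.416 to 0.625.

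The rise of that ratio rested on Snord17. Snord17 made 73.4% ± 2.59 of the C/D sum in FR (SD, n = 12), 59.6% ± 9.49 in FR > OH, 52.3% ± 8.31 in FR > FFPE and 43.9% ± 3.56 in FFPE. Snora74a made 43.0% ± 2.73 of the H/ACA sum in FR and 31.3% ± 1.99 in FFPE. Without Snord17 alone the log2 ratio was lower in FFPE than in FR, by -0.25 ± 0.19 (higher in 2 of 12 mice), and without Snora74a alone it was higher by 1.11 ± 0.20 (12 of 12), values added after the data were seen. Without Snord17 and Snora74a together the log2 ratio in FFPE differed from FR by 0.02 ± 0.18, higher in 7 of 12 mice, and in FR > FFPE and FR > OH it was lower in 12 of 12 mice (-0.41 ± 0.29 and -0.50 ± 0.36). As a mean of log2(CPM + 0.5), in which each RNA enters once, H/ACA exceeded C/D in FFPE vs. FR by 0.24 ± 0.10. The added 0.5 damps changes in scarce RNAs, and the filter on low counts kept 20 of 30 H/ACA but 8 of 16 C/D RNAs. The fitted H/ACA RNAs had a median log2 fold change of 1.31 and the fitted C/D RNAs 1.17, beside 0.32 over all genes tested. The order was reversed when every gene with any count was fitted (H/ACA 1.35, C/D 1.68). It was also reversed with a term for the L number (H/ACA 0.99, C/D 1.04). The difference between these medians was not tested.

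**Figure D4:**
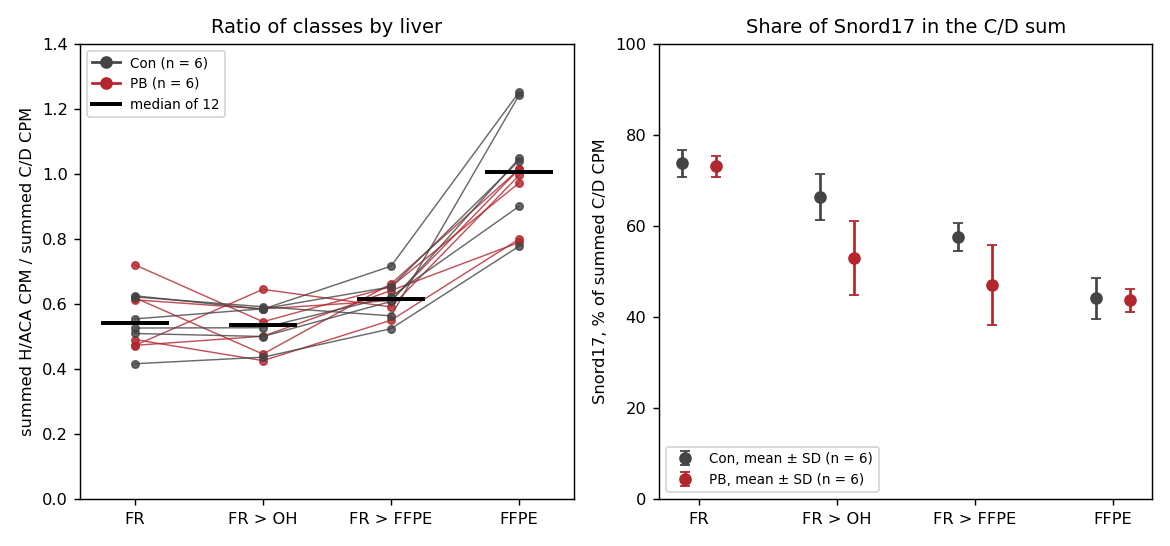
Left, summed H/ACA CPM over summed C/D CPM in each library by preparation, with a line for each of the 12 mice (grey Con, red PB) and black bars at the median; right, the share of Snord17 in the C/D sum in percent, mean ± SD of 6. The ratio was 0.778 to 1.25 in FFPE and at most 0.721 elsewhere, and the Snord17 share was 73.4% on average in FR and 43.9% in FFPE.

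In Con the H/ACA and scaRNA sums of FFPE lay above those of FR and the C/D sums overlapped, while in PB all 3 overlapped. In Con the H/ACA sum was 189.1, 233.0 and 267.4 CPM in FR (lowest, median, highest) and 298.8, 386.7 and 543.9 in FFPE. The C/D sum was 406.1, 429.7 and 454.4 CPM in FR and 287.1, 397.6 and 445.6 in FFPE. The scaRNA sum, nearly all Scarna13 and Scarna6, was 77.7, 87.9 and 100.7 CPM in FR Con and 108.2, 123.1 and 186.9 in FFPE Con. In PB the H/ACA sum was 136.9, 207.0 and 346.7 CPM in FR and 153.7, 305.9 and 346.7 in FFPE, the C/D sum 279.2, 372.0 and 481.1 against 192.1, 311.7 and 342.0, and the scaRNA sum 66.9, 84.9 and 117.9 against 74.3, 107.3 and 118.5.

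Freezing before fixation came with far fewer calls. In FR > FFPE vs. FR, 1 of 30 was called higher and 0 lower (3.96% and 0.0224% of genes), Snord16a at 1.57 ± 0.34 (adjusted p = 6.67e-05, edgeR). Its levels in FR > FFPE were 0.328, 0.891 and 1.45 CPM in Con and 0.481, 1.00 and 1.52 in PB, overlapping FR in both. It was not called with TMM or DESeq2 size factors or with all reads as the divisor. Snord17 was 0.89 ± 0.11 lower (adjusted p = 3.68e-09, edgeR), and Snora74a 0.68 ± 0.13 lower (adjusted p = 1.81e-05), both short of 2-fold. By adjusted p alone 5 of the 30 were higher and 2 lower, where 38.7% and 4.94% of genes were. None of the 30 had its 12 FR > FFPE libraries wholly above or wholly below the 12 FR libraries, as 13.9% and 1.02% of genes did. Under the mouse block Snora52 (1.29 in the main fit) joined Snord16a.

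In FR > OH vs. FR, 1 of 30 was called higher and 0 lower (2.51% and 0.0524% of genes). This was Snora64, at 1.19 ± 0.23 (adjusted p = 1.41e-05, edgeR), with 2.17, 2.495 and 3.43 CPM in FR > OH Con against at most 1.56 in FR Con, and 1.70, 2.69 and 3.79 in PB, where FR reached 2.92 and the groups overlapped. Under TMM, DESeq2 size factors, all reads as the divisor, DESeq2 or limma it was not called. The U15 RNAs Snord15a (0.78 ± 0.12) and Snord15b (0.56 ± 0.11), Snord22 (0.66 ± 0.11) and Snora70 (0.57 ± 0.17) passed the adjusted p in Con and in PB and not the fold. With Snora64 these made 5 of 30 higher and 0 lower by adjusted p alone, where 25.8% and 6.02% of genes were. None of the 30 lay wholly above or below FR in the 12 FR > OH libraries, as 6.27% and 1.15% of genes did.

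The direct comparison of FFPE with FR > FFPE, in which both were fixed in formalin, embedded and extracted alike but shared no L number, called 5 of 30 higher and 0 lower, against 0.112% and 0.015% of genes. FFPE carried L1 and L2 and FR > FFPE L3 and L4, so preparation and L number cannot be told apart here. All 5 were H/ACA RNAs: Snora26 (2.19 ± 0.26, adjusted p = 7.31e-09), Snora16a (1.65 ± 0.29, adjusted p = 2.06e-05), Snora64 (1.499 ± 0.22, adjusted p = 5.73e-07), Snora28 (1.48 ± 0.22, adjusted p = 7.70e-07) and Snora21 (1.46 ± 0.24, adjusted p = 8.63e-06), all by edgeR. With all reads as the divisor 1 remained called (Snora16a), and with limma 1 (Snora26). With counts thinned to the smallest library Snora16a and Snora21 were no longer called, while the sign was positive for all 5 under each of 11 alternatives. Snora64 was the 1 RNA of the 30 whose 12 FFPE libraries all lay above the 12 FR > FFPE libraries, where 0.187% of genes did so, and 0 lay wholly below (0.516% of genes). By adjusted p alone in Con and in PB, 12 of 30 were higher and 0 lower (2.48% and 5.7% of genes), with Snora74a at 0.84 ± 0.13, Scarna6 at 0.58 ± 0.09 and Scarna13 at 0.55 ± 0.11. Snord17 did not differ beyond its error, at -0.09 ± 0.11 (adjusted p = 0.610, edgeR).

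FR > FFPE vs. FR > OH, which sets formalin against ethanol after freezing, called 0 of 30 either way by edgeR, by DESeq2 and by limma (0.00748% of genes higher and 0% lower), with 5 at an unadjusted p under 0.05 (34.8% of genes). By adjusted p alone 0 were higher and 1 lower (2.4% and 0.194% of genes).

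The L numbers were shared out unevenly: FFPE Con carried L1, FR Con L2, and FFPE met FR only in L2, where 2 FFPE PB libraries stood beside 6 FR Con and 2 FR PB. There the 2 FFPE libraries lay above the 8 FR libraries for 13 of the 30 fitted RNAs (37.2% of genes) and below for 3, Snord17, Snora74a and Snora7a (10.4% of genes). The share above was thus near that of all genes, and 10 of the 13 were among the 15 called. For Snora26 they held 8.60 and 9.10 CPM against 0.850 to 1.89, for Snora28 6.77 and 7.53 against 0.691 to 1.64, and for Snora16a 1.43 and 1.49 against 0.169 to 0.737. Snord17 held 115.6 and 136.2 CPM in them against 265.8 to 355.6.

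Of the 50 RNAs, 46 lay within a host gene on the same strand, 23 in introns and 23 overlapping an annotated exon of the host (in 17 of these only of retained-intron transcripts). For the 22 fitted RNAs whose host was fitted too, 19 had a higher log2 fold change in FFPE vs. FR than the host. The 20 hosts had a median of -0.19 (range -0.70 to 1.42). Of them 1 was called higher (Dancr) and 0 lower, where 9.52% and 1.28% of all genes tested were, so so few hosts do not differ clearly from that share. Guides of 1 host could part: Snora16a was at 2.83 and Snora44 at -0.31, while their host Snhg12 was at 0.26. A test between the pair was not made, and Snora16a lies wholly in an annotated exon of Snhg12. Snora21 (2.35) sat in Rpl23 (-0.41), Snora70 (1.99) in Rpl10 (-0.70) and Snord17 (-0.98) in the sorting nexin gene Snx5 (-0.28). Across the 22 pairs the 2 changes went together at Pearson r 0.26 and Spearman rho 0.13.

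**Figure D5:**
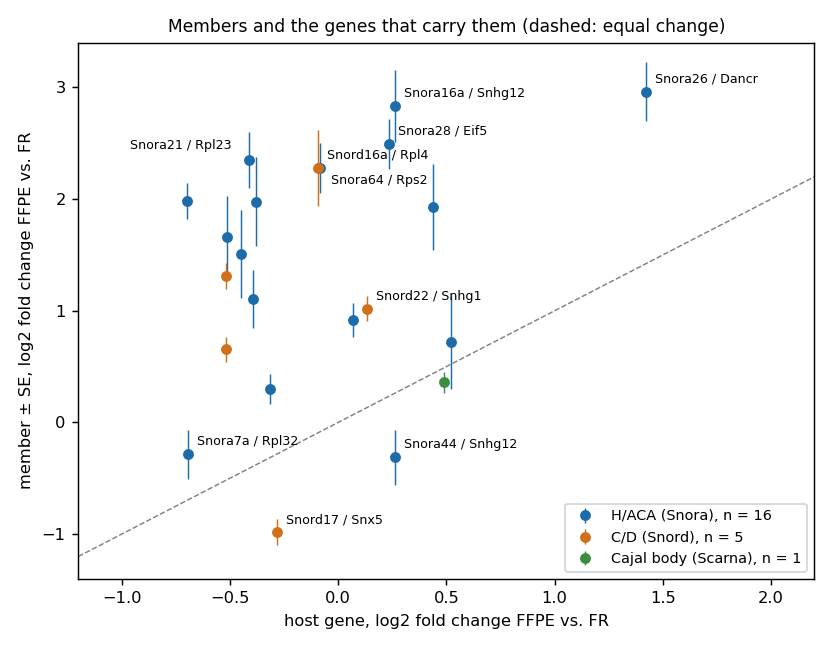
Log2 fold change of 22 guide RNAs (± SE) against that of the host gene in FFPE vs. FR, coloured by class; the dashed line marks equal change. For 19 of 22 the point lies above the line, and all hosts but Dancr (1.42) lie between -0.70 and 0.52.

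Messengers for the proteins of the guide particles were mostly not called, as most genes were not (9.52% higher and 1.28% lower in FFPE vs. FR). Of the C/D proteins Fbl, Nop56, Nop58 and Snu13, 0 of 4 were called in FFPE vs. FR (median log2 fold change -0.09). Of the H/ACA proteins 1 was called higher, Gar1 at 1.32 ± 0.19 (adjusted p = 2.67e-08, edgeR), and 1 lower, Nop10 at -1.22 ± 0.07 (adjusted p = 4.83e-19), with Dkc1 at -0.02 and Nhp2 at -0.37. Of 15 genes for assembly and maturation (median 0.10) and 4 for Cajal bodies (median 0.25), none was called in this comparison. Among long noncoding host transcripts, 4 of 15 tested were called higher, where 9.52% of genes were (Snhg7, Snhg11, Snhg17 and Snhg20, at 1.30 to 2.03). In FR > FFPE 4 were called and in FR > OH 3, where 3.96% and 2.51% of genes were. Of 6 other structured RNAs tested 1 was called higher in FFPE vs. FR, where 9.52% of genes were. This was the minor spliceosomal RNA Rnu11, at 3.47 ± 0.32 (adjusted p = 1.88e-13, edgeR). Telomerase RNA Terc, which carries an H/ACA domain, was at 0.75 ± 0.17.

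The 20 RNAs below the count filter were given no test one by one in the main fit. Summed, they made 0.511, 1.71 and 2.37 CPM in FR (lowest, median and highest of 12), 1.45, 2.34 and 3.44 in FR > OH, 1.70, 3.28 and 6.01 in FR > FFPE and 3.70, 6.35 and 15.7 in FFPE. Pooled over 12 libraries, 19 of the 20 had a higher CPM in FFPE than in FR, where 72.6% of other genes counted as often and left out by the filter did. Snora62 was the exception, with 26 counts in FR and 6 in FFPE. Snord23, Snord49b and Snord55 were counted in 16, 17 and 17 libraries, of which 7, 8 and 8 were FFPE. They met the 12-library rule only through FFPE, so for them the choice itself favoured a higher level there. The C/D RNA Snord8 had 16 counts in FR and 60 in FFPE, where total counts were lower, and Scarna3a 22 and 51. Snord55 had 0 counts in FR and 13 in FFPE, at least 9.03-fold higher when 3 counts over the 12 FR libraries are taken as the floor. Snora24 had estimates that summed to almost 0 in FR and 68.96 estimated counts in FFPE, at least 47.9-fold higher on the same floor. Snora24 lies in a retained intron of Snhg8, and the split of its reads with the host is uncertain. It reached a count of 0.5 in only 14 libraries, most of them FFPE and the rest FR > FFPE. Elsewhere it held 0 or fractional estimates, mostly close to 0, and without FFPE only these brought it past the 12-library rule. For Snora24 too the choice thus favoured a higher level in FFPE.

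Few of these RNAs were called for phenobarbital, while most had a log2 difference below 0. In PB vs. Con within a preparation, 0 of 30 were called in FR, FFPE or FR > FFPE by edgeR, DESeq2 or limma (1.74%, 1.65% and 1.71% of genes were called higher and 0.262%, 0.269% and 0.157% lower). At an unadjusted p under 0.05 there were 0, 10 and 7 (21%, 19.2% and 18.8% of genes). The log2 difference was below 0 for 27 of 30 RNAs in FFPE (median -0.44, beside 0.01 over all genes) and for 25 in FR > FFPE (median -0.29, beside 0.06). It was below 0 for 20 in FR > OH (median -0.20, beside 0.02) and for 23 in FR (median -0.12, beside 0.00). The H/ACA sum was 403.2 ± 112.2 CPM in FFPE Con and 279.9 ± 76.4 in FFPE PB (SD, n = 6 each), with overlapping ranges. In FR > OH 1 was called higher and 0 lower (2.12% and 0.299% of genes), with 10 at an unadjusted p under 0.05 (25.1% of genes). The call was Snora26 at 1.42 ± 0.39 (adjusted p = 0.0105, edgeR). It stood at 0.873, 1.51 and 2.23 CPM in Con and at 1.42, 3.72 and 6.55 in PB, so the groups overlapped. In L5 alone it held 0.978 to 2.23 CPM in 3 Con libraries and 1.42 to 6.55 in 6 PB libraries. Its difference between PB and Con was 0.30 ± 0.41 in FR, 0.78 ± 0.39 in FR > FFPE and -0.65 ± 0.33 in FFPE, none past the adjusted p. No interaction of PB with preparation was called for any of the 30 by edgeR, DESeq2 or limma (0% of genes, with 1, 2 and 1 of the 30 at an unadjusted p under 0.05 for FFPE, FR > FFPE and FR > OH, against 3.46%, 2.15% and 2.28% of genes).

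By adjusted p without a fold limit, a few abundant guides were lower in PB than in Con in the embedded preparations. Scarna6 differed by -0.52 ± 0.13 in FFPE (adjusted p = 0.0101), -0.51 ± 0.13 in FR > FFPE (adjusted p = 0.0107) and -0.45 ± 0.13 in FR > OH (adjusted p = 0.0197), and by -0.13 ± 0.13 in FR (adjusted p = 0.614), all by edgeR. Snord17 differed by -0.77 ± 0.16 in FR > FFPE (adjusted p = 8.98e-04) and -0.74 ± 0.16 in FR > OH (adjusted p = 0.00102), with 177.3, 197.3 and 258.9 CPM in FR > FFPE Con against 67.3, 138.1 and 143.9 in PB, which did not overlap. All FR > FFPE Con libraries carried L3 and all PB ones L4, so in FR > FFPE treatment and L number cannot be told apart. In FFPE and FR it differed by -0.39 ± 0.16 and -0.24 ± 0.16. The others were Snora70 in FFPE (-0.68 ± 0.22, adjusted p = 0.0477), and Snora74a (-0.58 ± 0.19, adjusted p = 0.0362) and Snora44 (-0.98 ± 0.32, adjusted p = 0.0329) in FR > OH. By this criterion 2, 2 and 4 of the 30 were lower in FFPE, FR > FFPE and FR > OH, where 1.98%, 0.987% and 3.77% of genes were, and 0 in FR, where 2.6% were. None was higher in FR, FFPE or FR > FFPE (5.86%, 4.64% and 6.24% of genes), and Snora26 alone was in FR > OH (8.43%).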

How the data were processed

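Total RNA from 48 samples of 12 livers was sequenced after ribosomal depletion. The authors trimmed reads, aligned them with STAR 2.5.3a to GRCm38 and assigned them to RefSeq transcripts by expectation maximisation in Partek Flow. The deposited estimated counts were 94.0% within 0.001 of whole numbers. The deposited log2 CPM values were scaled by the authors to 17458002 to 28315357 reads per library. The values served in 1 alternative (limma) and their scaling in another (all reads as the divisor). Estimated counts were rounded and fitted with edgeR 4.0.16 (quasi-likelihood, 8 group means, library size the total count) over 13370 genes with a geometric mean above 1 (offset 0.0001). DESeq2 1.42.0 and limma 3.58.1 were alternatives. P-values were adjusted by Benjamini-Hochberg over all genes fitted. Rat and cell line tables were not used. Sequences were read from GENCODE M21 transcripts (GRCm38) for 115 of 119 symbols, and none is given from chromosome 18.

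The members and lists were chosen with earlier results of these data known. RNAs named were the 3 most abundant of each class, up to 6 with the largest calls in FFPE vs. FR and up to 3 in the other comparisons with FR, each RNA called between embedded preparations or for PB, and the U15, U8 and U64 forms. Snora7a, Snora44, Snora52, Snora62, Snora70, Snora24, Snord8, Snord55 and Snord104 were named after their values were seen. The L number in the sample titles was read as a lane or pool, although the methods state 8 samples per lane and the numbers hold 9 or 10 libraries each. Samples of a mouse deviated together (72 of 72 pairs at a correlation above 0.1, median 0.689), as they come from the same liver. On simulated counts for FFPE vs. FR, with 200 of 13370 genes changed 4-fold, 95% were recovered.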

Additional observations from a re-analysis of the deposited data

Results flagged for a closer look

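In 8 of 168 groups of 6 samples tested, 1 library stood apart from the other 5, or 4.76%, where chance gives about 1 in 20. Scarna13 was at 56.9 CPM in FR > OH Con mouse 21C, with the others at 34.6 to 40.5. Scarna6 was at 93.5 CPM in FFPE Con mouse 8C (others 58.7 to 63.6), and the scaRNA sum of that library was 186.9 CPM (others 108.2 to 130.5). Snora16a was at 4.24 CPM in FFPE PB mouse 18D (others 1.43 to 2.01). In FR PB mouse 20D, Snora64 was at 2.92 CPM (others 0.584 to 0.983) and Snord16a at 0.947 CPM (others 0 to 0.338). In FR > FFPE Con mouse 21C, Snord22 was at 82.0 CPM (others 37.6 to 46.3) and the C/D sum at 470.8 CPM (others 310.0 to 355.4). Without that last library the numbers of RNAs called in FR > FFPE vs. FR and in FFPE vs. FR > FFPE stayed at 1 and 5. The cause was not tested for any of these.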

How the results depend on the processing

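The 15 RNAs called in FFPE vs. FR were positive under all 12 alternatives, while 6 RNAs were called with all reads as the divisor (5 higher, 1 lower), 5 with limma (4 higher, 1 lower) and 6 with a term for the L number (all higher), and 11 with thinned counts. In FR > FFPE vs. FR the 1 call became 0 with TMM or DESeq2 size factors, 2 with thinned counts, 2 with the replicate block and 7 without a fold limit. In FR > OH vs. FR the 1 call became 0 with TMM, DESeq2 size factors, all reads as the divisor, DESeq2 or limma, and 5 without a fold limit. In FFPE vs. FR > FFPE the 5 became 1 with all reads as the divisor, 1 with limma and 12 without a fold limit, and with thinned counts 3 of the 5 were kept. FR > FFPE vs. FR > OH gave 1 without a fold limit. PB vs. Con gave 2 in FFPE and 2 in FR > FFPE without a fold limit. In FR > OH it gave 2 with TMM, DESeq2 size factors or thinned counts, 3 with DESeq2 or without genes over 1% of the total, and 5 without a fold limit. The log2 H/ACA to C/D difference from FR became 0.24 in FFPE and -0.020 in FR > FFPE as a mean of logs, and 0.024, -0.41 and -0.50 in FFPE, FR > FFPE and FR > OH without the most abundant RNA of each class. Chosen after seeing the data, leaving out Snord17 alone gave -0.25, -0.67 and -0.63, which reversed the first, and leaving out Snora74a alone gave 1.11 and 0.42 in FFPE and FR > FFPE. The replicate block by mouse changed no other count. The causes were not tested. Counts of RNAs called under the alternatives in this section stand without the share of all genes called under the same alternative. Scarce RNAs such as Snora16a and Snord16a, at 0 to 9 and 0 to 12 counts in FR, limit the precision.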
